A study of Homo sapiens with 8 samples.

Results

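Matrix metalloproteases are zinc-dependent endopeptidases that cut collagens, proteoglycans and other proteins outside the cell, and TIMPs are the small proteins that plug their active site. The 10 genes described here, 7 metalloproteases (MMP1, MMP2, MMP3, MMP10, MMP11, MMP14 and MMP16) and 3 TIMPs (TIMP1, TIMP2 and TIMP3), were taken by gene name from a table of 58870 gene rows, and all 10 passed the filter on low reads. RNA came from BJ cells, a skin fibroblast line, in the derivative named BJ-HRAS, which every group shared. Groups were WT and SNORA13 KO, each untreated or given (Z)-4-Hydroxytamoxifen (4-OHT) at 100 nM for 7 days, with WT clones 15 and 54 and KO clones 66 and 69 in both states, so that 8 libraries made 4 groups of 2 clones. The untreated libraries are labelled only as without 4-OHT. The HRAS construct is not given in the sources used here, nor is how each clone was made. SNORA13 belongs to the H/ACA class of small nucleolar RNAs. As background, 4-OHT activates oncogenes fused to a modified oestrogen receptor, and active HRAS drives fibroblasts into senescence. The table's columns carry the clone number with or without a minus sign, and the sign was read as 4-OHT negative, so every direction of a 4-OHT response rests on that reading.

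Most metalloproteases are secreted as latent proenzymes whose propeptide must be removed, often by plasmin or by another metalloprotease. MMP1 is the interstitial collagenase of fibroblasts, MMP3 and MMP10 are closely related stromelysins that also activate other proenzymes, and MMP2 is a gelatinase that MMP14 activates at the cell surface together with TIMP2. Senescent fibroblasts are known for secreting MMP1, MMP3 and MMP10, which AP-1 and ETS transcription factors induce downstream of RAS and interleukin 1.

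Library totals were 22057911 to 24908491 reads. SNORA13 had 4 to 7 reads in each WT library and 0 in each KO library, where a count of 0 allows up to 3 reads (counting error only). Fibroblast markers were abundant, with all 12 listed genes past the filter and a summed level of 4769 to 5414 RPKM (reads divided by transcript length in kilobases and by library size) without and 3344 to 3769 with 4-OHT. The sum hides single markers. With 4-OHT, DCN went from a mean of 61.6 to 0.928 RPKM in WT and from 74.0 to 1.07 in KO. COL1A1, COL1A2 and COL3A1 also fell in both genotypes, and COL6A1 rose. The epithelial list summed to 780 to 800 RPKM in untreated WT, 492 to 549 in untreated KO and 263 to 290 in treated libraries (3 of 7 genes passed, and KRT5 and KRT14 were at 0). The immune list summed to 12.2 to 16.8 RPKM in WT and 8.94 to 10.5 in KO (4 of 7 passed, CD68 is listed at 0), and the endothelial list to 0.178 to 0.41 (2 of 5 passed). The melanocyte and neural list (2 of 5 passed) summed to 3.94 to 4.55 RPKM in treated KO clones and 8.99 to 18.1 elsewhere. The RNA of the signal recognition particle took 9.18% to 10.1% of reads without 4-OHT, 9.72% in treated WT clone 15 and 14.8% to 16.1% in the other treated libraries. These values move with 4-OHT or genotype, and their part in the results was not tested.

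Promoter sequences were looked up for the members that move with 4-OHT, since motifs of the factors named above can be read from them. RefSeq's table (GRCh38.p14, 250 bases before to 50 after the gene start) held 5 of the 10 members, MMP10, MMP11, MMP14, TIMP1 and TIMP3, and not MMP1, MMP2, MMP3, MMP16 or TIMP2. Shown are MMP10 (chr11:102780579-102780878, minus strand), whose response differed between genotypes, MMP14 (chr14:22836335-22836634, plus strand) and TIMP3 (chr22:32801455-32801754, plus strand), which rose, and MMP11 (chr22:23772599-23772898, plus strand), which fell. The start is RefSeq's, which for MMP11 lies inside the GENCODE span given further on. Capitals mark matches on either strand to the AP-1 motif, spelled TGANTCA. They also mark the TATA box, which was searched as TATAAA on both strands. Capitals further mark GC boxes, for which GGGCGG was searched on both strands, and no match overlapped another.
MMP10: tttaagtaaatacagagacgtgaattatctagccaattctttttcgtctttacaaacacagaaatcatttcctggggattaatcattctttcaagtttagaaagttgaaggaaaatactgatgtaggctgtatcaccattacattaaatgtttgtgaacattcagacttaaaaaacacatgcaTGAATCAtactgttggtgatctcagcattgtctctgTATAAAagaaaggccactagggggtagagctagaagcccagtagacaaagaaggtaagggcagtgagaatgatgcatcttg
MMP14: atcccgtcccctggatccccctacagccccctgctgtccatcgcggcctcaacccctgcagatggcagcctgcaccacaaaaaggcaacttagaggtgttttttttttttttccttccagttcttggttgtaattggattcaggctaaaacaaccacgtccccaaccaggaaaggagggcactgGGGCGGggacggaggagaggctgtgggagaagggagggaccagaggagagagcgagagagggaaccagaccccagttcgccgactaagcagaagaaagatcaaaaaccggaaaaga
TIMP3: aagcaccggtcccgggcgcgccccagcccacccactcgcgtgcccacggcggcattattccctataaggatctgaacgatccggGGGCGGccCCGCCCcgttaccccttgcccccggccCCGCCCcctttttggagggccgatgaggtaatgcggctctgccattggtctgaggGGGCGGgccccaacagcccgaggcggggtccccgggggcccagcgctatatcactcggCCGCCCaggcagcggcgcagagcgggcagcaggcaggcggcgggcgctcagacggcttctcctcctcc
MMP11: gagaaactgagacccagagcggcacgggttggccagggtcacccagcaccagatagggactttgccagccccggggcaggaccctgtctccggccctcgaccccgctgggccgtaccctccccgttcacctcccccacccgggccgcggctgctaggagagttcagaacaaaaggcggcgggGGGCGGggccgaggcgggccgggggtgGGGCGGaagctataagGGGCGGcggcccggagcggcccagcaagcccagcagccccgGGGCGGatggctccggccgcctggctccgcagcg

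MMP10 had the only match to TGANTCA among these 5 promoters, with its first base 67 bases before the start. It also had the only match to TATAAA, 31 bases before the start. Over all 35116 promoters of this length, 7.71% held an AP-1 match and 11.5% a TATA box. GC boxes were found in the other 4 (1 in MMP14, 2 in TIMP1, 4 in MMP11 and 5 in TIMP3), as in 45% of all promoters. Guanine and cytosine made up 36.3% of the MMP10 promoter and 55% to 74.3% of the others. An ETS motif was searched only as AGGAAG, on both strands, and matched TIMP1 alone of these 5, against 33.6% of all promoters. Other spellings of the AP-1, TATA box, GC box and ETS motifs were not searched, so promoters without a match may still hold one. A match is a stretch of letters and not a measured binding site.

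With 4-OHT, both genotypes made far more RNA of the collagenase MMP1 and the membrane protease MMP14, more of MMP16 and TIMP3, and less of MMP2, MMP11, TIMP1 and TIMP2. The stromelysins split by genotype: MMP3 rose in WT clones and MMP10 in KO clones. In WT, 5 members rose, 4 fell and 1 did not pass the test, where limma called 48.9% of the 16543 genes tested, 24.7% higher and 24.2% lower. KO clones also had 5 members called higher, 4 lower and 1 not called, against 55.7% of all genes, 27.9% higher and 27.8% lower. Calls were so common that the members' counts are a description of these genes and not a sign of the family. The median log2 change of the 10 members was 0.56 in WT and 0.93 in KO, beside -0.01 and -0.02 over all genes tested. Fold changes here are on the log2(RPKM + 0.1) scale after trimmed-mean (TMM) scaling, which understates the change of low genes, and adjusted p-values are from limma with Benjamini-Hochberg adjustment over all genes tested, with 0.05 as threshold. In these bulk libraries, a change in the share of cells that express a gene and a change in RNA per cell cannot be told apart.

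**Figure D1:**
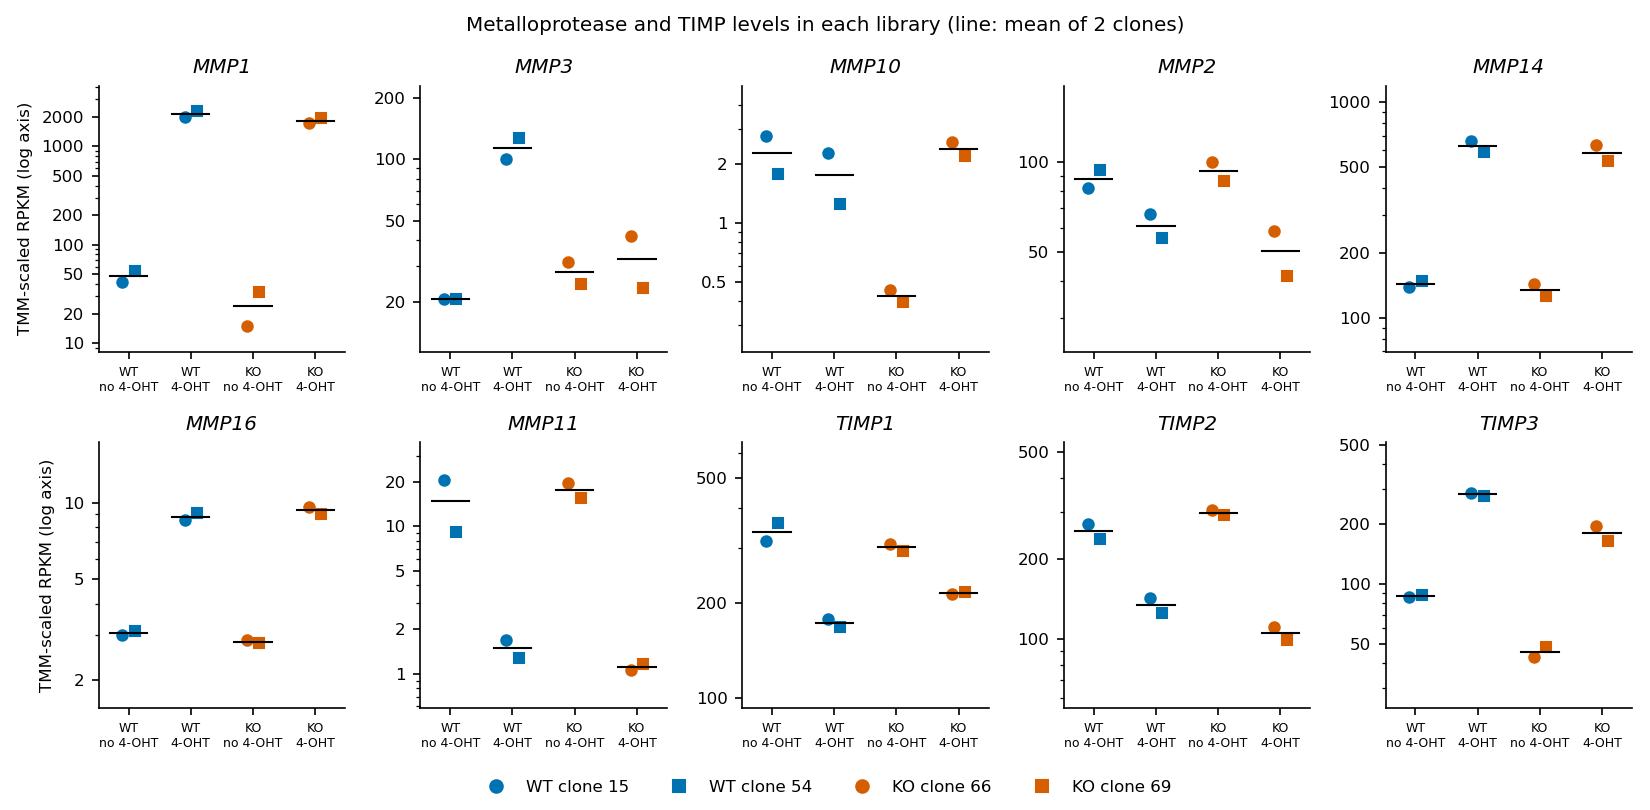
Level of each of the 10 genes in each of the 8 libraries, as TMM-scaled RPKM on a log axis, by group (x axis), with the 2 clones of a group as separate symbols and their mean as a line. MMP1 reached 1742 to 2286 RPKM in all 4 treated libraries, and MMP3 was highest in the 2 treated WT libraries. MMP10 was low in every library and lowest in the 2 untreated KO libraries.

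MMP1 (ENSG00000196611.5; chromosome 11, 102789920 to 102798160, minus strand, GRCh38) measured 41.9 and 54.0 RPKM in untreated WT clones 15 and 54, and 1990 and 2286 RPKM with 4-OHT. In KO clones 66 and 69 it went from 14.8 and 33.2 to 1742 and 1926 RPKM. The treated libraries all lay far above the untreated ones, and MMP1 took 0.333% to 0.43% of all reads in them. The rise was 44.7-fold in WT (log2 5.48 ± 0.33, SE; adjusted p = 2.46e-05) and 82.3-fold in KO (log2 6.36 ± 0.33; adjusted p = 1.05e-05). Within clones it was 47.5-fold and 42.4-fold in WT, and 118-fold and 58.0-fold in KO. Without untreated KO clone 69 the KO estimate was log2 6.95.

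Both untreated KO clones lay below both untreated WT clones for MMP1, 24.0 ± 13.0 against 47.9 ± 8.5 RPKM (SD, n = 2 clones), a difference that did not pass the test (log2 -1.10 ± 0.33, limma adjusted p = 0.0906). With 4-OHT the log2 difference was -0.22 ± 0.33 (adjusted p = 0.704), and the KO response minus the WT response was 0.88 ± 0.47 (adjusted p = 0.288). Without untreated KO clone 69 the latter was 1.46 and passed (adjusted p = 0.0416).

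MMP3 (ENSG00000149968.12; chromosome 11, 102835801 to 102843803, minus strand), which cleaves proteoglycans and activates pro-MMP1, measured 20.8 and 20.6 RPKM in the untreated WT clones and 100.3 and 126.6 with 4-OHT. The KO clones held 31.2 and 24.5 RPKM untreated and 41.9 and 23.3 with 4-OHT. The treated WT libraries lay above all 6 others and the untreated WT libraries below them, while the KO groups overlapped each other. MMP3 rose 5.43-fold in WT (log2 2.44 ± 0.26; limma adjusted p = 0.000272), and its KO estimate was log2 0.18 ± 0.26 (adjusted p = 0.595).

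The responses of MMP3 differed between genotypes by log2 -2.26 ± 0.37 (KO minus WT; limma adjusted p = 0.0147), and with 4-OHT KO clones held 3.60-fold less than WT (adjusted p = 0.00839). Without 4-OHT the genotypes were not called apart (log2 0.42 ± 0.26, adjusted p = 0.36). The difference of responses missed the threshold without untreated KO clone 66 (adjusted p = 0.0658) or with no filter on low genes (0.0619), with log2 -2.09 and -2.26. In KO, the response was log2 -0.24 without treated clone 66 (adjusted p = 0.326) and 0.60, past the threshold, without treated clone 69 (0.0412).

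MMP10 (ENSG00000166670.10; chromosome 11, 102770503 to 102780628, minus strand), the other stromelysin, had the lowest RPKM of the 10 members in both untreated groups, with 17 to 116 reads per library over all 8. It measured 2.77 and 1.78 RPKM in untreated WT clones, 2.26 and 1.25 with 4-OHT, 0.451 and 0.396 in untreated KO clones, and 2.58 and 2.18 in treated KO clones. The untreated KO libraries lay below all 6 others, whereas both WT groups overlapped. MMP10 rose 4.73-fold in KO (log2 2.24 ± 0.31; limma adjusted p = 0.000688), by 5.71-fold and 5.52-fold in the 2 clones before any pseudocount, and had a WT estimate of log2 -0.38 ± 0.31 (adjusted p = 0.352).

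Untreated KO clones held 4.44-fold less MMP10 than untreated WT clones (log2 -2.15 ± 0.31, limma adjusted p = 0.0136), and treated ones were not called apart (log2 0.47 ± 0.31, adjusted p = 0.355). The difference of responses was log2 2.62 ± 0.44 (adjusted p = 0.0165). The sizes of these MMP10 changes depend on the pseudocount: with 1 in place of 0.1 the KO response was log2 1.25, the untreated difference -1.19 and the difference of responses 1.5, and with 0.01 they were 2.46, -2.37 and 2.86, all past the threshold. Both genotype calls had adjusted p-values of 0.0524 to 0.113 when any single KO library of the contrast was left out, with no filter or, for the former, with only the groups compared, at log2 -2.23 to -2.08 and 2.51 to 2.74 with the pseudocount of 0.1. Without treated WT clone 54 the WT response was log2 0.03 (adjusted p = 0.956).

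MMP10, MMP1 and MMP3 lie next to each other on 11q22, 9.3 and 37.6 kb apart and all on the minus strand, so these 3 patterns came from neighbouring genes. MMP1 and MMP3 share exon positions with WTAPP1 on the opposite strand, which had 2 reads in treated WT clone 15 and 0 elsewhere. Whether reads were counted by strand is not given in the sources used here.

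**Figure D2:**
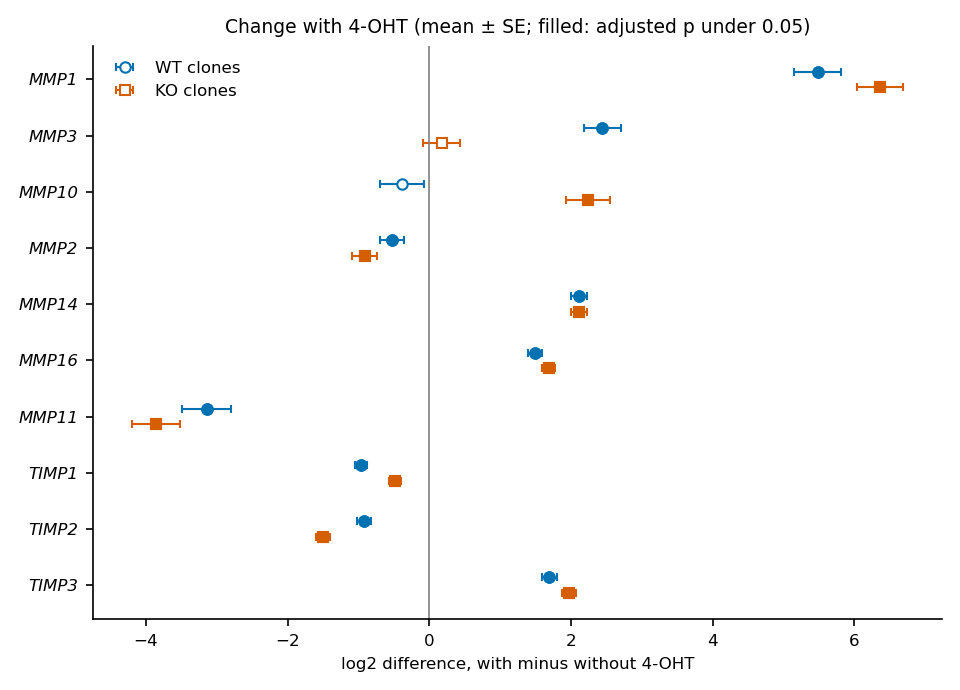
Change with 4-OHT of each gene in WT (circles) and KO clones (squares) as a log2 difference (x axis) with its SE, filled where limma's adjusted p was under 0.05. MMP1, MMP14, MMP16 and TIMP3 lie to the right of 0 in both genotypes, MMP3 is filled only in WT and MMP10 only in KO.

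Of the membrane-anchored members, MMP14 (ENSG00000157227.13; chromosome 14, 22836557 to 22849027, plus strand) digests fibrillar collagen at the cell surface and activates pro-MMP2. It measured 138.8 and 148.5 RPKM in untreated WT clones, 659.9 and 588.5 with 4-OHT, 143.4 and 125.6 in untreated KO clones, and 630.6 and 534.8 with 4-OHT. The treated and untreated libraries did not overlap, and the genotypes overlapped in both states. Its rise was 4.34-fold in WT and 4.33-fold in KO (limma adjusted p = 1.52e-05 and 1.07e-05), with a difference of responses of log2 0.00 ± 0.16 (adjusted p = 0.989), whose sign turned in 5 of the alternative settings.

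MMP16 (ENSG00000156103.16; chromosome 8, 88032009 to 88328025, minus strand), a membrane-type protease that also activates pro-MMP2, went from 3.02 and 3.11 to 8.53 and 9.09 RPKM in WT and from 2.88 and 2.80 to 9.64 and 9.04 in KO. Clones of a group were close, and treated libraries were all higher than untreated ones. The rise was 2.82-fold in WT and 3.21-fold in KO (log2 1.49 ± 0.09 and 1.68 ± 0.09; limma adjusted p = 2.89e-05 and 1.27e-05), and the responses were not called apart (log2 0.19 ± 0.13, adjusted p = 0.418).

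MMP2 (ENSG00000087245.13; chromosome 16, 55389700 to 55506691, plus strand), the gelatinase that these membrane proteases activate, moved the other way. It measured 82.1 and 94.0 RPKM in untreated WT clones, 66.7 and 55.7 with 4-OHT, 100.0 and 86.5 in untreated KO clones, and 58.8 and 41.6 with 4-OHT. Treated libraries were lower in both genotypes, and KO and WT overlapped in either state. The fall was 1.88-fold in KO (limma adjusted p = 0.00332) and 1.44-fold in WT (adjusted p = 0.0398). The WT call ended without any of the WT libraries or of the untreated KO libraries (adjusted p = 0.0519 to 0.19) and with no filter (0.111), at log2 -0.66 to -0.40.

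MMP11 (ENSG00000099953.10; chromosome 22, 23768226 to 23784316, plus strand), a stromal protease that furin activates inside the cell, had the steepest fall of the 10 members. It measured 20.7 and 9.22 RPKM in untreated WT clones, 1.71 and 1.28 with 4-OHT, 19.7 and 15.5 in untreated KO clones, and 1.06 and 1.17 with 4-OHT. Every treated library lay below every untreated one, and untreated WT clone 54 was the lowest of the untreated. The fall was 8.82-fold in WT and 14.5-fold in KO (log2 -3.14 ± 0.35 and -3.86 ± 0.35; limma adjusted p = 0.000313 and 8.32e-05). With a pseudocount of 1 the KO estimate was log2 -3.13.

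The genotypes were not called apart for MMP11 without 4-OHT (log2 0.33 ± 0.35, limma adjusted p = 0.589) or in their responses (log2 -0.72 ± 0.49, adjusted p = 0.405). Without untreated WT clone 15 these became 0.91 and -1.30 and passed (adjusted p = 0.0434 and 0.0304), and without untreated WT clone 54 the former was -0.25 (0.583). MMP11 shares exon positions with CHCHD10 on the opposite strand, which measured 8.77 to 18.2 RPKM, and their reads cannot be told apart if strand was not used in counting.

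Of the inhibitors, TIMP1 and TIMP2 fell and TIMP3 rose. TIMP1 (ENSG00000102265.12; chromosome X, 47582313 to 47586789, plus strand), a secreted inhibitor that is weak against MMP14, measured 314.4 and 360.0 RPKM in untreated WT clones, 177.9 and 167.3 with 4-OHT, 308.6 and 293.4 in untreated KO clones, and 213.4 and 216.4 with 4-OHT. Treated libraries were lower in both genotypes, and the treated KO clones lay above the treated WT clones. It fell 1.95-fold in WT and 1.40-fold in KO (limma adjusted p = 0.000107 and 0.00197).

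The difference of the TIMP1 responses was log2 0.48 ± 0.12 (limma adjusted p = 0.0549), and it passed with limma-voom (0.0259), with the stricter filter (0.0474) and without untreated WT clone 15 (0.0143). With 4-OHT, KO clones held 1.25-fold more TIMP1 than WT (adjusted p = 0.0463). This call ended with the replicate block by clone (0.0505), with library size only (0.0664), with no filter (0.0936), and without any of the treated libraries or of the untreated KO libraries (0.0876 to 0.199).

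TIMP2 (ENSG00000035862.12; chromosome 17, 78852977 to 78925387, minus strand), which both inhibits MMP2 and helps MMP14 to activate it, measured 270.3 and 236.7 RPKM in untreated WT clones, 142.2 and 125.6 with 4-OHT, 303.2 and 290.6 in untreated KO clones, and 111.4 and 99.5 with 4-OHT. The KO libraries were the highest without and the lowest with 4-OHT. TIMP2 fell 1.89-fold in WT and 2.82-fold in KO (log2 -0.92 ± 0.10 and -1.50 ± 0.10; limma adjusted p = 0.000306 and 2.48e-05).

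For TIMP2 the difference of responses was log2 -0.57 ± 0.14 (limma adjusted p = 0.0549). It passed with the replicate block by clone (0.0269), with limma-voom (0.017), with the stricter filter (0.0477) and without untreated WT clone 15 (0.025). The difference between treated KO and WT clones, log2 -0.34 ± 0.10 (adjusted p = 0.0625), passed with limma-voom (0.0259) and without either untreated WT library (0.0366 and 0.0371).

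TIMP3 (ENSG00000100234.11; chromosome 22, 32801701 to 32863043, plus strand), which binds to the matrix and also inhibits ADAM and ADAMTS proteases, rose. It measured 85.8 and 88.0 RPKM in untreated WT clones, 286.0 and 277.9 with 4-OHT, 43.0 and 48.6 in untreated KO clones, and 195.6 and 164.6 with 4-OHT. KO clones lay below WT clones in both states, and the 4 groups did not overlap. The rise was 3.24-fold in WT and 3.92-fold in KO (limma adjusted p = 2.17e-05 and 9.29e-06), with responses not called apart (log2 0.27 ± 0.14, adjusted p = 0.276).

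KO clones held 1.90-fold less TIMP3 than WT without 4-OHT (log2 -0.93 ± 0.10, limma adjusted p = 0.00764) and 1.57-fold less with it (log2 -0.65 ± 0.10, adjusted p = 0.00935). The first call ended without untreated KO clone 66 (adjusted p = 0.0693) or 69 (0.0596), the second without treated WT clone 15 (0.0662) or treated KO clone 69 (0.0694), with log2 differences of -1.01 to -0.84 and -0.63 and -0.53.

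Set side by side, KO and WT clones differed in few members. Without 4-OHT 2 of the 10 were called, MMP10 and TIMP3, both lower in KO, where 6.58% of all genes were called, 3.73% lower and 2.85% higher. With 4-OHT 3 were called, MMP3 and TIMP3 lower and TIMP1 higher, beside 14.4% of all genes, 7.63% lower and 6.77% higher. The responses were called apart for 2 members, MMP3 (smaller in KO) and MMP10 (larger in KO), beside 7.58% of all genes, 3.22% lower and 4.36% higher. The contrasts share libraries and are not independent. Each group had 2 clones, and the p-values rest on clone-to-clone spread pooled over the 4 groups and moderated across all genes tested. The main fit took the treated and untreated libraries of a clone as independent. Genotype cannot be told apart from other properties of the 4 clones.

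**Figure D3:**
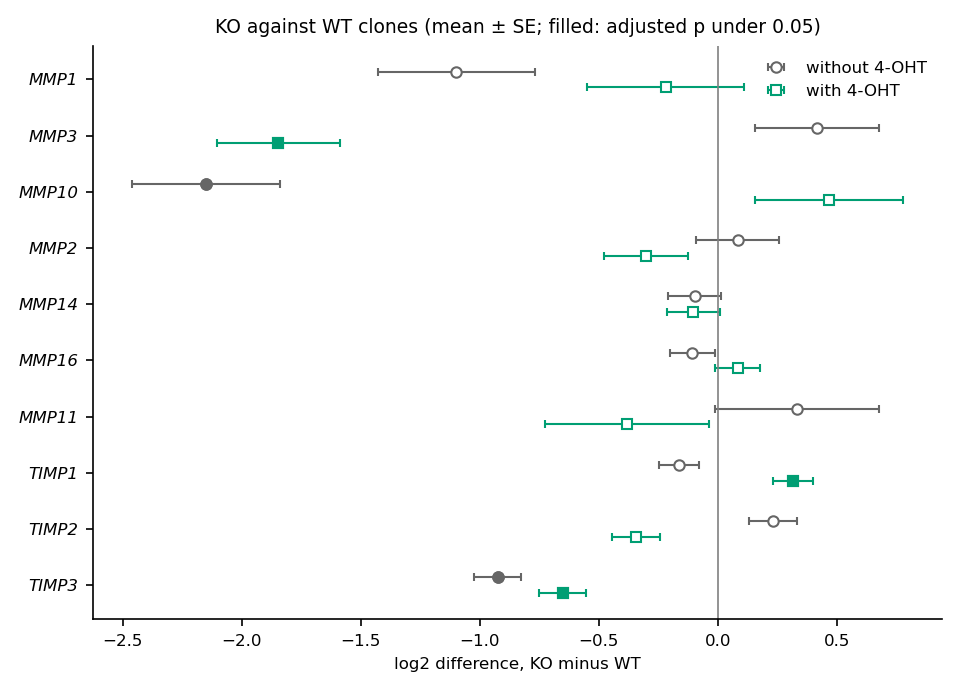
Difference between KO and WT clones for each gene as log2 KO minus WT (x axis) with its SE, without 4-OHT (circles) and with it (squares), filled where limma's adjusted p was under 0.05. TIMP3 is filled to the left of 0 in both states, MMP10 only without and MMP3 only with 4-OHT.

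Levels can be ordered across genes because RPKM is per length. Without 4-OHT the order in WT was TIMP1 (337 ± 32 RPKM), TIMP2 (254 ± 24), MMP14 (144 ± 7), MMP2 (88.0 ± 8.4), TIMP3 (86.9 ± 1.5), MMP1 (47.9 ± 8.5), MMP3 (20.7 ± 0.1), MMP11 (15.0 ± 8.1), MMP16 (3.06 ± 0.06) and MMP10 (2.27 ± 0.70; SD, n = 2 clones). In that order MMP2 and TIMP3, and MMP3 and MMP11, overlapped between clones. The KO order without 4-OHT differed in placing MMP3 (27.9 ± 4.8) before MMP1 (24.0 ± 13.0), with clones of TIMP1 and TIMP2, of MMP3 and MMP1, and of MMP1 and MMP11 overlapping. This order depends on the transcript lengths, as described next.

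With 4-OHT, MMP1 (2138 ± 209 RPKM in WT and 1834 ± 130 in KO) and MMP14 (624 ± 50 and 583 ± 68) came before every TIMP. TIMP3 (282 ± 6) was the most abundant TIMP in treated WT clones, ahead of TIMP1 (173 ± 7) and TIMP2 (134 ± 12), and in treated KO clones TIMP1 (215 ± 2) led TIMP3 (180 ± 22) and TIMP2 (105 ± 8). Neighbours that overlapped between treated clones were TIMP2 and MMP3 and MMP10 and MMP11 in WT, and MMP2 and MMP3 in KO. The authors' lengths are those of 1 listed transcript per gene, which for MMP14 is a noncoding one of 1740 bases (its longest protein-coding transcript in GENCODE 29 has 3732) and for MMP11 one with a retained intron of 3823 bases (2291). Per longest protein-coding transcript, an alternative chosen after seeing the data, untreated WT clones held TIMP2 (254 ± 24), TIMP1 (237 ± 23), TIMP3 (86.9 ± 1.5), MMP2 (76.1 ± 7.3) and then MMP14 (67.0 ± 3.2), with MMP11 (25 ± 13.6) before MMP3 (18.7 ± 0.1) and clones of TIMP2 and TIMP1 overlapping. Untreated KO clones held TIMP2 (297 ± 9), TIMP1 (211 ± 8), MMP2 (80.7 ± 8.3), MMP14 (62.7 ± 5.9) and TIMP3 (45.8 ± 3.9) on that scale, and MMP11 (29.3 ± 4.9) came before MMP3 and MMP1. With 4-OHT, MMP14 measured 291 ± 24 in treated WT clones, overlapping TIMP3, and TIMP3 (180 ± 22) came before TIMP1 (151 ± 1) in treated KO clones.

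Summed over the 7 metalloproteases, levels were 289 to 331 RPKM in the 4 untreated libraries and 2487 to 3068 in the 4 treated ones. The 3 TIMPs summed to 633 to 685 RPKM without and 481 to 606 with 4-OHT. Metalloprotease RNA per TIMP RNA was 0.462 and 0.484 in untreated WT clones, 4.67 and 5.37 with 4-OHT, 0.477 and 0.456 in untreated KO clones, and 4.78 and 5.28 with 4-OHT. The genotypes overlapped in both states, and the treated libraries were all higher. MMP1 made up 4.73% to 16.3% of the metalloprotease sum without and 70.1% to 75.9% with 4-OHT. Without MMP1 the ratio was 0.4 to 0.454 untreated and 1.27 to 1.43 treated. Per longest protein-coding transcript it was 0.328 to 0.387 untreated and 0.768 to 0.868 treated, so whether it passed 1 with 4-OHT depends on the length used. With MMP1 the treated ratio was 4.45 to 5.4 on that scale. These are ratios of RNA levels and not of protein, and they carry no test.

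**Figure D4:**
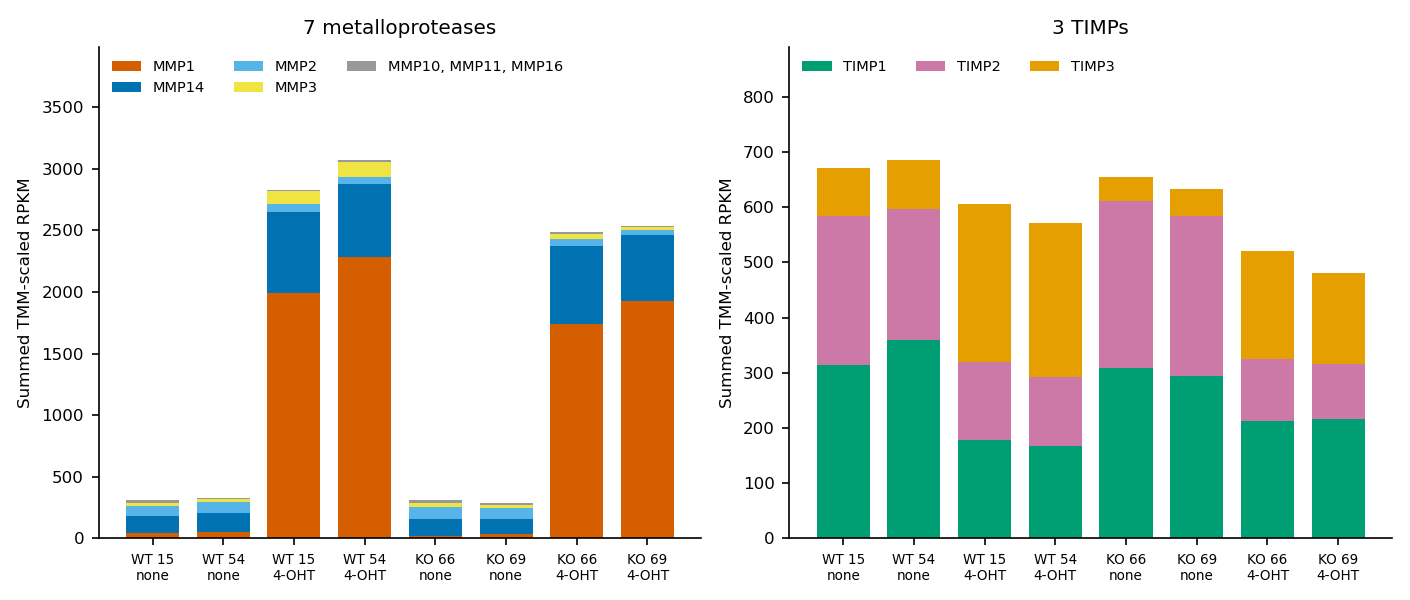
Summed TMM-scaled RPKM of the 7 metalloproteases (left) and the 3 TIMPs (right) in each library (x axis, genotype and clone, without and with 4-OHT), stacked by gene. MMP1 fills most of the treated bars on the left, and TIMP3 takes a larger part of the treated bars on the right.

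Of 17 other family genes listed (16 metalloproteases and TIMP4), 8 passed the filter, of which 1 rose and 3 fell in WT, and 1 rose and 4 fell in KO. Over all genes tested, limma called 24.7% higher and 24.2% lower in WT, and 27.9% and 27.8% in KO. These shares stand beside the counts of this list and of those that follow. MMP17, a membrane protease with a lipid anchor, rose from 15.8 ± 1.9 to 24.4 ± 0.8 RPKM in WT and from 16.2 ± 1.7 to 34.3 ± 4.4 in KO (limma adjusted p = 0.00518 and 0.000306). MMP24, also anchored in the membrane, fell 2.43-fold in WT and 4.05-fold in KO and MMP19 2.06-fold and 2.34-fold (adjusted p at most 0.000825). MMP12, the macrophage elastase, with 5 to 46 reads, fell 3.66-fold in KO (adjusted p = 0.0125) and had a WT estimate of log2 0.06 (0.93), and its responses were not called apart (0.131). MMP20, MMP26 and MMP27 were listed at 0 in every library.

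Other inhibitors and surface regulators mostly fell. Of 12 listed, 10 were tested, and in each genotype 8 fell and 2 rose. The broad protease trap A2M fell from 49.7 ± 1.2 to 2.06 ± 0.28 RPKM in WT and from 41.2 ± 5.0 to 2.33 ± 0.33 in KO, THBS2, a matrix protein that helps to clear MMP2, 3.96-fold and 2.34-fold, and the testican SPOCK1 5.79-fold and 8.66-fold. CLDN1, a tight junction protein, rose from 0.0935 ± 0.0057 to 3.37 ± 0.19 RPKM in WT and from 0.114 ± 0.007 to 1.04 ± 0.17 in KO. RECK, a membrane-anchored inhibitor of MMP14 named here after its values were seen, fell from 22.5 ± 4.1 to 7.15 ± 0.04 RPKM in WT and from 24.8 ± 1.5 to 5.74 ± 0.14 in KO. Limma's adjusted p was at most 7.57e-05 for each of A2M, THBS2, SPOCK1, CLDN1 and RECK. The responses, KO minus WT, were called apart for THBS2 (log2 0.76 ± 0.10, adjusted p = 0.00697) and CLDN1 (-1.76 ± 0.30, 0.0172). Those of A2M, SPOCK1 and RECK were not. With 4-OHT, KO clones held 2.06-fold less SPOCK1, 3.06-fold less CLDN1 and 1.60-fold more THBS2 than WT (adjusted p at most 0.0115). The called falls were smaller for BSG (1.36-fold in WT and 1.47-fold in KO) and LRP1 (1.45-fold and 1.52-fold), both named after their values were seen.

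Among genes of proenzyme activation, 7 of 10 tested rose and 1 fell in WT, and 8 rose and 2 fell in KO. The plasminogen activators PLAT (33.7 ± 1.6 to 1298 ± 95 RPKM in WT, 21.3 ± 1.2 to 531 ± 75 in KO) and PLAU (18.2 ± 9.0 to 676 ± 56, and 7.97 ± 0.32 to 630 ± 35) and the urokinase receptor PLAUR (40.1 ± 2.9 to 103 ± 7, and 36.7 ± 0.8 to 102 ± 0.18) rose in both genotypes (limma adjusted p at most 2.37e-05). SERPINB2, which inhibits PLAU, rose 8.66-fold and 5.43-fold (adjusted p = 0.000543 and 0.00132). Treated KO clones held 2.46-fold less PLAT than treated WT clones, and untreated ones 1.58-fold less (limma adjusted p = 0.00258 and 0.0205). The PLAT responses were not called apart (0.0545). PLAU and PLAUR were not called apart between genotypes in either state.

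Of 16 AP-1 and ETS genes, all tested, 7 rose and 6 fell in WT, and 8 rose and 7 fell in KO. FOS fell from 186 ± 46 to 11.4 ± 1.2 RPKM in WT and from 194 ± 3 to 44.0 ± 4.3 in KO, with responses called apart (log2 1.86 ± 0.23, limma adjusted p = 0.00669). FOSL2, also an AP-1 subunit, fell 5.16-fold and 6.29-fold, and the ETS factors ETV1 (0.404 ± 0.057 to 7.18 ± 1.11 RPKM, and 0.0686 ± 0.0332 to 6.71 ± 1.78) and ETV5 (5.38 ± 0.62 to 21.1 ± 1.2, and 4.00 ± 0.32 to 21.2 ± 1.6) rose (adjusted p at most 3.38e-05). The AP-1 subunits did not all fall: FOSL1 rose 4.89-fold in WT and 7.70-fold in KO (limma adjusted p = 0.00037 and 8.13e-05). JUN, JUNB, JUND and FOSB fell in both genotypes, JUN less in KO (difference of responses log2 0.77 ± 0.16, limma adjusted p = 0.0337). The responses of JUNB, JUND and FOSB were not called apart. These AP-1 genes were named after their values were seen. Of 13 cytokine and growth factor inputs, 9 were tested, of which 7 rose and 1 fell in WT, and 6 rose and 1 fell in KO. IL1B, a known inducer of stromelysins, went from 2.73 ± 0.69 to 92.8 ± 9.2 RPKM in WT and from 2.68 ± 1.04 to 38 ± 5.9 in KO (adjusted p = 1.58e-05 and 3e-05), and treated KO clones held 2.45-fold less (adjusted p = 0.0231), while its responses were not called apart (0.0971).

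Matrix proteins that these enzymes cut were mostly lower. Of 17 listed, 16 were tested, of which 11 fell and 2 rose in WT and 9 fell and 1 rose in KO. The fibrillar collagen COL3A1 fell from 501 ± 47 to 91.4 ± 3.5 RPKM in WT and from 356 ± 1 to 126 ± 5 in KO, COL1A2 from 1712 ± 72 to 258 ± 21 and from 1320 ± 139 to 312 ± 31, and decorin (DCN) from 61.6 ± 10.1 to 0.928 ± 0.061 and from 74.0 ± 8.1 to 1.07 ± 0.05 (limma adjusted p at most 1.21e-05). The growth factor carrier IGFBP5 fell 65.6-fold and 75.3-fold (adjusted p = 1.17e-05 and 7.16e-06). The fall was smaller in KO for COL3A1 (difference of responses log2 0.95 ± 0.12, adjusted p = 0.00636) and COL1A2 (0.65 ± 0.15, adjusted p = 0.048). It was also smaller for COL1A1 (0.84 ± 0.20, adjusted p = 0.0458). Untreated KO clones held 1.40-fold less COL3A1 and 1.52-fold less COL1A1 than untreated WT clones (adjusted p = 0.0209 and 0.0475). COL1A2 was not called apart there (0.0836). The called risers were COL6A1 in both genotypes and COL4A1 in WT. COL1A1, COL4A1 and COL6A1 were named here after their values were seen.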

How the data were processed

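The 8 libraries were prepared from DNase-treated total RNA with a kit that keeps strand, per the labels' protocols. STAR, featureCounts, edgeR and the GRCh38 build are named, without versions or settings, per the submitters' processing notes. The authors deposited RPKM values, per kilobase of 1 listed transcript and scaled to the library total, although the table is named for counts. Read numbers were recovered from transcript lengths and library totals: 51380 lengths came from GENCODE 29, 1055 from another version of the transcript and 5621 from the steps between values. For the GENCODE 29 lengths, 100.0% of values above 0 lay within 0.1 of a whole read. The other lengths were accepted only if they gave whole reads, so that share is no check of them. From the steps the smallest such length was taken, so those read numbers may be too low. Totals were 22057911 to 24908491 reads, so 1 read in 1 kb is worth 0.0401 to 0.0453 RPKM.

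TMM factors from these reads (0.954 to 1.03) scaled the RPKM values. Genes with 10 reads at the median library size (CPM 0.425) in at least 2 libraries and 15 reads in all were kept (16543). The log2(RPKM + 0.1) values of all 8 libraries entered 1 two-sided fit of 4 group means (limma 3.58.1 with trend and robust moderation, R 4.3.3), with Benjamini-Hochberg adjustment over all genes. The fit was also run on simulated counts with the same spread for every gene, no clone effect and few genes changed. That run therefore does not cover the pairing by clone or the many changed genes of these libraries. The 45 rows of pseudoautosomal Y copies were left out. The same clone gave both states, and deviations from group means correlated within clones at 0.309 in WT and 0.005 in KO. Named genes were all members, the 2 genes most like each member, and up to 4 genes a list with the smallest p in a response. RECK, BSG, LRP1, COL1A1, COL4A1, COL6A1 and further AP-1 subunits were added to the lists' named genes after their values were seen. The members and lists were chosen with earlier results of these data known.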

Additional observations from a re-analysis of the deposited data

Results flagged for a closer look

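The responses to 4-OHT of MMP3 and MMP10 differed between WT and KO clones by the test of the difference itself. For MMP3 the KO response minus the WT response was log2 -2.26 ± 0.37 (limma adjusted p = 0.0147), with folds of 4.82 and 6.15 in WT clones 15 and 54 and of 1.34 and 0.953 in KO clones 66 and 69. For MMP10 it was log2 2.62 ± 0.44 (adjusted p = 0.0165), with folds of 0.817 and 0.703 in the WT clones and of 5.71 and 5.52 in the KO clones. MMP10 rests on 17 and 19 reads in the untreated KO libraries, and untreated KO clones differed from WT in MMP10 and treated ones in MMP3.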

How the results depend on the processing

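The 9 members called in either response stayed between 8 and 9 in WT and 9 and 10 in KO under every alternative run. KO against WT without 4-OHT, 2 members were called, and 1 with no filter or with only the groups compared, and 0 to 3 with a library left out. With 4-OHT the 3 called became 1 to 4 with a library left out. For the difference of responses the 2 called became 0 with no filter, 4 with the stricter filter or limma-voom, and 0 to 5 with a library left out. The count between untreated genotypes was 0 in limma without untreated KO clone 66 or 69 (MMP10 adjusted p = 0.0876 and 0.113), and that between treated ones was 1 without treated WT clone 15 or treated KO clone 69. For the difference of responses it was 5 without untreated WT clone 15, 0 without untreated KO clone 66, and 1 without either treated KO clone. The replicate block by clone changed the calls of TIMP1 and TIMP2 given above (adjusted p = 0.0505 and 0.0269) and no other member's call. Signs of uncalled members turned when a library was left out. The log2 values then ranged from -0.78 to 0.03 for MMP10 in WT and from -0.24 to 0.60 for MMP3 in KO. For KO minus WT they ranged from -0.02 to 0.19 for MMP2 and -0.25 to 0.91 for MMP11 without 4-OHT, with -0.01 for MMP2 without untreated WT clone 15, and from -0.22 to 0.02 for MMP14 with 4-OHT. The difference of responses of MMP14 was 0.03 with library size only, and ranged from -0.12 to 0.11 without a library (0.04, 0.08 and 0.09 in the others that turned). The cause was not tested, beyond fewer libraries or more genes in the fit. Per longest protein-coding transcript, metalloprotease RNA per TIMP RNA went from 0.473 to 0.416 in untreated WT and from 0.467 to 0.406 in untreated KO clones. Without MMP1 it went from 0.402 to 0.333 and from 0.429 to 0.363 in untreated, and from 1.38 to 0.856 and from 1.35 to 0.818 in treated WT and KO clones. A pseudocount of 1 lowered the sizes of MMP10 and MMP11 changes as given above and ended no member's call. The edgeR and DESeq2 alternatives were not run because the deposited unit is RPKM. The depth limits MMP10 most, and 1 clone left in a group is assumed to vary like the others.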

Other observations

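Genes that flank the metalloprotease cluster on 11q22 were called in both directions with 4-OHT. Of 7 listed and tested, 4 rose and 2 fell in either genotype, beside 48.9% of all genes called in WT and 55.7% in KO. As with the members, this count is a description and not a sign of the locus. PDGFD, a growth factor, fell from 3.15 ± 0.78 to 0.215 ± 0.026 RPKM in WT and from 3.77 ± 0.01 to 0.364 ± 0.045 in KO, TMEM123 fell 1.66-fold and 1.86-fold, and DCUN1D5, the listed gene that follows MMP13, rose 2.04-fold and 2.43-fold (limma adjusted p at most 0.000486). BIRC3, an inhibitor of apoptosis that NF-kappaB induces, rose from 0.0994 ± 0.0173 to 0.685 ± 0.113 RPKM in WT and from 0.0861 ± 0.0551 to 0.231 ± 0.038 in KO (adjusted p = 0.000934 and 0.0315), and treated KO clones held 2.37-fold less (adjusted p = 0.0279). The difference of the BIRC3 responses was not called.

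Among 12621 genes with a mean of at least 1 RPKM, those whose log2 levels over the 8 libraries were most like a member's were ATP5F1B and PRNP for MMP1, SPRED2 and NOP14 for MMP14, TRPA1 and SLC45A3 for MMP16, PITX1 and OTULINL for TIMP3, DAG1 and IFITM2 for MMP11, MRTFA and GRIA3 for MMP2, TOX and NFIA for TIMP1, and NID2 and PPM1H for TIMP2 (Pearson r = 0.982 to 0.999). For MMP3 they were TRAK1 (0.987) and SLC35E1 (0.979), and for MMP10 ITGA8 (0.972) and TFIP11 (0.95). These libraries fall into a treated and an untreated set and come in pairs from the same clone, so r is given as a description only.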
